A study of Canis lupus familiaris with 6 samples.

Results

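The genes described here are the plasma membrane and lysosomal carriers of amino acids and of closely related solutes, taken as every gene name on the array of the families SLC1, SLC3, SLC6, SLC7, SLC36, SLC38 and SLC43. They were chosen by name alone, from the names printed in the scanner output, and came to 52 of the 34378 gene and accession names on the array. One of the 52, SLC7A6OS, is named for its place beside SLC7A6 and is not a carrier, so 51 transporters remained. The 52 names were covered by 73 probes, and the probe with the highest mean signal stood for each gene. RNA was from MDCK-pTR GFP-RasV12 cells (RasV12 cells), which are Madin-Darby canine kidney (MDCK) epithelial cells of the dog that make GFP-tagged RasV12 from a transgene switched on by tetracycline. All cells received tetracycline for 24 h, in high-glucose medium with serum on collagen-coated dishes, and GFP-positive cells were then sorted. RasV12 cells cultured alone (3 arrays) were compared with RasV12 cells co-cultured with MDCK cells (3 arrays), to ask how contact with normal neighbours alters gene expression in the transformed cells. The labels disagree in places. The methods give 10 MDCK cells for 1 RasV12 cell, but the label of co-cultured replicate 2 gives 100 to 1, and the extraction text names a cell line that also carries a β-catenin mutant, which the sample titles and the study's methods do not give for these arrays. Nothing states that the arrays of a group came from separate cultures, so the p-values measure the spread between these samples, which may be technical.

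Amino acids cross membranes on carriers of several kinds. Sodium-coupled carriers such as those of the SLC38 family pull neutral amino acids into the cell, exchangers such as SLC7A5 with SLC3A2 then trade these for leucine and other essential amino acids, and lysosomal carriers pass amino acids to the mTORC1 growth pathway. In kidney tubule epithelium further carriers recover filtered amino acids from the urine, and a few take up betaine or taurine, organic solutes with which renal cells balance salt outside. MDCK cells have long served to study the betaine carrier SLC6A12.

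The arrays were 1-colour, and a level is given as log2 of the scanner's processed signal minus the 75th percentile of its array, so that 0 is the level of a probe at that percentile. The scanner software called 60.8% to 66.4% of the 43603 probes of an array well above its background, and the number of arrays limits the precision. Cells alone and co-cultured cells were hybridised on separate slides, 1 for each, so the slide and the culture cannot be told apart. Of 8 listed markers of kidney tubule epithelium, 7 were on the array by name, and all 7 were well above background on every array, with a mean level of 3.16 to 3.21 alone and 3.32 to 3.41 in co-culture. PTPRC of leukocytes and COL3A1 and PDGFRA of fibroblasts were well above background on no array, whereas COL1A1, COL1A2, LUM and PDGFRB of the fibroblast list, and CD68 of the leukocyte list, were so on all 6. The fibroblast list's 4 tested genes had a mean level of -2.99 to -2.96 alone and -2.91 to -2.79 in co-culture, and the 3 tested leukocyte genes -2.50 to -2.15 alone and -2.40 to -2.21 in co-culture. Of 11 tested genes that RasV12 raises through the MAPK pathway, 3 were lower in co-culture (EREG, EPHA2 and FOSL1) and none higher, and with the replicate number as a block IER3 was also lower (difference -0.49, adjusted p 0.0377) and SPRED1 higher (difference 0.39, adjusted p 0.0491, limma). Of all probes tested on the array, 11.2% passed an adjusted p under 0.05 by limma without the block. The mean level of the 11 genes was 0.75 to 0.79 alone and 0.39 to 0.65 in co-culture. A sorted fraction that held more MDCK cells and a lower level of these genes in each RasV12 cell cannot be told apart here, and their part in the results below was not tested.

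Of the 52 members, 32 were well above background on all 6 arrays, 9 on some arrays and 11 on none. A member was tested if all arrays of cells alone, or all co-cultured arrays, measured it well above background. That left 34 members, which are 33 transporters and SLC7A6OS. All 6 of the SLC6 carriers of betaine, taurine, creatine and GABA were tested, and 8 of 9 SLC38 genes. The monoamine carriers SLC6A2, SLC6A3 and SLC6A4, which take up noradrenaline, dopamine and serotonin at nerve endings, were well above background on no array. The main luminal carrier of neutral amino acids in kidney and gut, SLC6A19, and the lysosomal proton-coupled carrier SLC36A1 were not well above background on any array either. SLC6A19 lay between -7.91 and -5.98 alone and between -6.31 and -5.57 in co-culture, and SLC36A1 between -5.86 and -5.61 alone and between -7.34 and -6.16 in co-culture. The lowest level called well above background on an array was -6.14 to -5.44, so these are levels at the lower edge of the measurement.

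**Figure D1:**
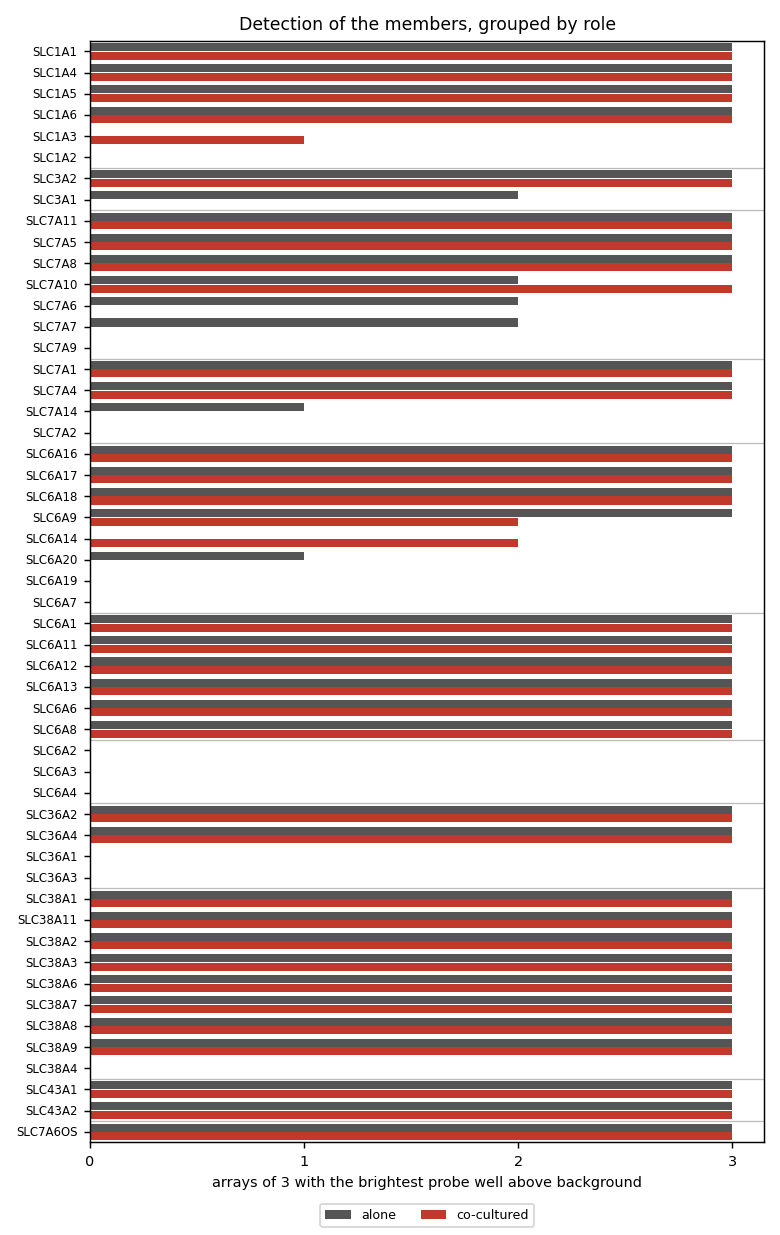
Number of arrays of 3 in each group (x axis) on which the brightest probe of each of the 52 members (y axis, grouped by role) was well above background, in grey for RasV12 cells alone and in red for co-cultured cells. 32 members reach 3 arrays in both groups, and 11 have no bar.

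Between the groups 4 transporters differed, and all were higher in co-culture: SLC6A12, SLC7A4, SLC1A1 and SLC6A18. SLC6A12 carries betaine and GABA into renal cells with sodium and chloride, and SLC1A1 is the main carrier of glutamate and aspartate of kidney epithelium. SLC6A18 is a neutral amino acid carrier of the kidney's luminal membrane, and SLC7A4 is a relative of the cationic amino acid carriers whose own substrate is unsettled. The 4 are 11.8% of the 34 members tested, where 11.2% of all 26535 probes tested, and 10.9% of names at their brightest probe, were called by limma at an adjusted p under 0.05. Higher calls took 5.50% of all probes tested. The share of members called was thus near that of the array as a whole, and no member was called lower, by limma or by the methods' t-test with the same adjustment. At an unadjusted p under 0.05 by limma there were 11 members, 2 of them lower, and the share of all probes at that threshold was not counted. By the methods' t-test, unadjusted, 9 of the 34 members and 7315 of the 26535 probes were under 0.05. The probes behind these 4 genes, on canFam3, are shown because each call rests on a single 60-base probe. For 3 of them, and for SLC7A11, the first 30 bases are given, and the probe of SLC7A4, whose coordinates span 161 bases and so cross an intron, is given whole. Whether the others lie in coding or untranslated exon was not analysed here.
SLC6A12, chr27:42270483-42270542, minus strand, first 30 bases: tcacatagctatgcctaaaacctggcctcc
SLC7A4, chr26:30468921-30469081, minus strand, all 60 bases: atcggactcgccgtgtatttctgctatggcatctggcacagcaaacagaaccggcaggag
SLC1A1, chr1:92978173-92978232, plus strand, first 30 bases: gcctcttaacacactgtgctgttaactcat
SLC6A18, chr34:11312174-11312233, minus strand, first 30 bases: cagcctgtgtgccgcttgcccgccaacagc
SLC7A11, chr19:4358021-4358080, plus strand, first 30 bases: ctgcatactatctctttattatctgggaca

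SLC6A12 was at -2.74, -2.54 and -2.66 in the 3 arrays of RasV12 cells alone and at -1.80, -0.98 and -1.01 in the 3 co-cultured arrays. The groups did not overlap, and co-cultured replicate 1 stood below the other two. The difference was 1.39 ± 0.22 (log2, SE, n = 3 and 3), or 2.61-fold, with an adjusted p of 0.0207 (limma, Benjamini-Hochberg), and it was the only member past 2-fold. SLC6A13, a related GABA and betaine carrier whose probe lies 35.3 kb from that of SLC6A12 on chromosome 27, was at -3.62, -3.29 and -3.69 alone and at -3.14, -3.37 and -3.50 in co-culture. Its groups overlapped and its difference was 0.20 ± 0.14 (adjusted p 0.380 by limma, 95% confidence interval -0.14 to 0.54).

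SLC7A4 was dim on every array, at -3.87, -3.99 and -3.99 alone and at -3.50, -3.31 and -3.44 in co-culture. The groups did not overlap, with a difference of 0.53 ± 0.08 (SE) and an adjusted p of 0.0193 by limma. SLC1A1 was bright, at 3.99, 3.89 and 3.99 alone and at 4.34, 4.33 and 4.32 in co-culture. The co-cultured arrays had an SD of 0.01, the groups did not overlap, and the difference was 0.37 ± 0.07 (adjusted p 0.0262, limma). SLC6A18 was at -1.99, -1.94 and -2.00 alone and at -1.62, -1.72 and -1.65 in co-culture, again without overlap, with a difference of 0.32 ± 0.07 (adjusted p 0.0360, limma). With the replicate number as a block, SLC6A18 was no longer called (adjusted p 0.0585, limma) and the other 3 were. Collectrin (TMEM27), a partner protein with which SLC6A18 reaches the membrane, had a mean level of -3.86 alone and -4.18 in co-culture, with an adjusted p of 0.0699 (limma).

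**Figure D2:**
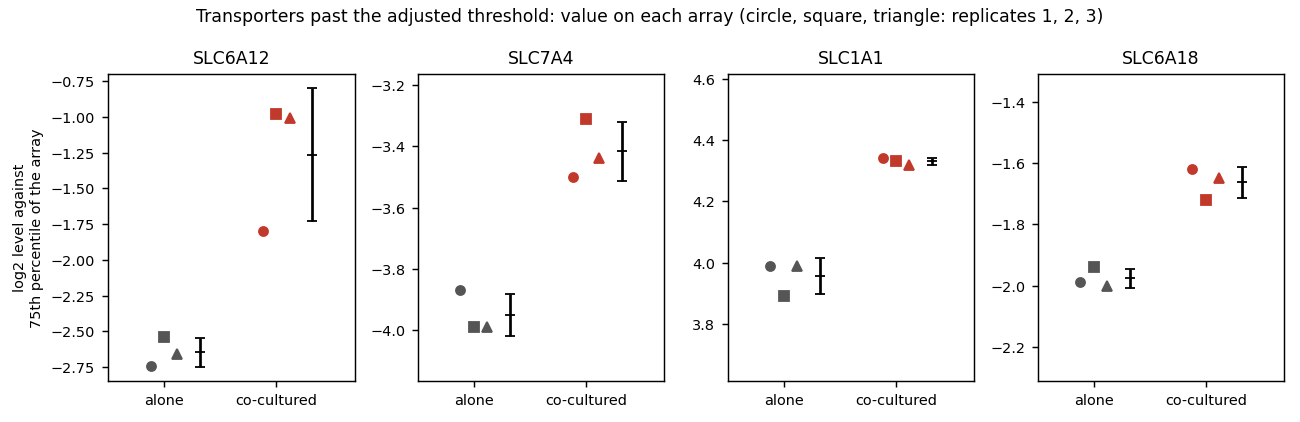
Level on each array (y axis, log2 against the 75th percentile of the array, with its own range in each panel) of the 4 transporters past the threshold, for RasV12 cells alone in grey and co-cultured cells in red, with the mean and SD of 3 arrays in black. In each panel the co-cultured arrays lie above all arrays of cells alone, and co-cultured replicate 1 (circle) is the lowest of the co-cultured arrays for SLC6A12.

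The calls depended on which arrays were kept. Without alone replicate 2, alone replicate 3, co-cultured replicate 2 or co-cultured replicate 3, none of the 4 passed (adjusted p 0.0831 to 0.137, limma), with differences of 1.24 to 1.44 for SLC6A12 and 0.48 to 0.54 for SLC7A4, and 7 to 24 probes of the whole array were called. Without co-cultured replicate 1, SLC6A12 and SLC7A4 were called (adjusted p 0.00439 and 0.0322) while SLC1A1 and SLC6A18 were not (0.0524 and 0.0730, limma). Without alone replicate 1, all 4 were called, among 13 of 37 members tested, 10 of them higher and 3 lower. Over the whole array 7335 of 27757 probes tested were called in that setting. When arrays were scaled by the labelled spike-in RNAs instead, which moved the median of all probes by -0.16, SLC6A12 was still higher by 1.22 (adjusted p 0.0498) and the other 3 were not called, at 0.16 to 0.37 (adjusted p 0.0876 to 0.441, limma). By the methods' t-test with Benjamini-Hochberg adjustment SLC6A12 and SLC7A4 were not called (adjusted p 0.0769 and 0.0511), whereas SLC1A1 and SLC6A18 were (0.0381 and 0.0422).

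**Figure D3:**
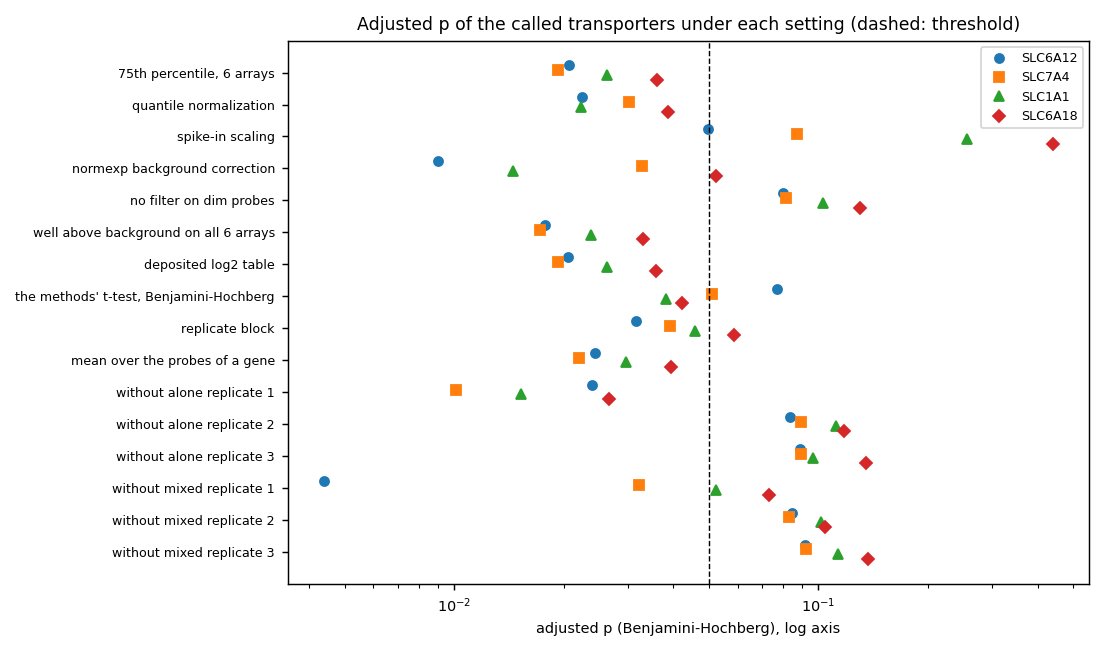
Adjusted p (x axis, log scale) of the 4 called transporters under each way of processing (y axis), by limma except where the methods' t-test is named, with the threshold of 0.05 as a dashed line. All 4 lie right of the line when alone replicate 2 or 3, or co-cultured replicate 2 or 3, is left out, and when dim probes are kept.

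Among the 34 tested members, 25 differences were above 0 and 9 below, with a median of 0.10, against a median of 0.00 and 49.4% above 0 over all tested probes, and 51.5% above 0 over names at their brightest probe. With the spike-in scaling the members' median was -0.06. In 10 members the groups did not overlap (8 higher and 2 lower in co-culture), which is 29.4% of them, where it was so for 37.2% of all tested probes. SLC7A10, among the 8 higher, passed the filter only through its co-cultured arrays. The other 30 members were not called, and 29 of these differed by less than 0.5.

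**Figure D4:**
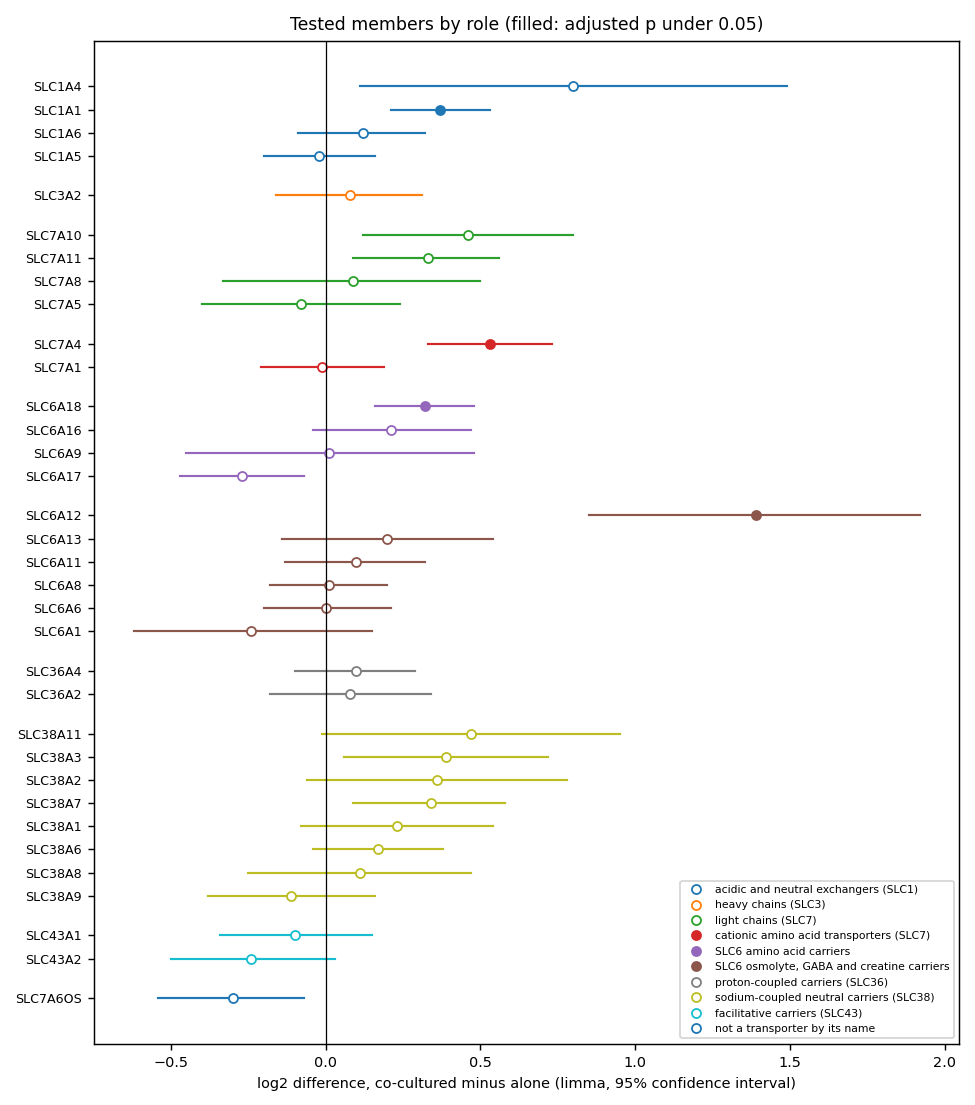
Difference in level (x axis, log2, co-cultured minus alone) with its 95% confidence interval from limma for each of the 34 tested members (y axis), grouped and coloured by role, with filled points for those at an adjusted p under 0.05. The 4 filled points are all right of 0, and the interval of SLC6A12 (0.85 to 1.92) lies furthest from it.

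The exchangers that supply most growing cells with glutamine and leucine did not differ beyond their spread. SLC1A5, which brings in glutamine, was at 4.05, 3.93 and 3.89 alone and at 3.98, 3.93 and 3.89 in co-culture, a difference of -0.02 (95% confidence interval -0.20 to 0.16, adjusted p 0.877 by limma). SLC7A5, the leucine exchanger, was at 3.58, 3.10 and 3.22 alone and at 3.14, 3.33 and 3.19 in co-culture, a difference of -0.08 (interval -0.40 to 0.24, adjusted p 0.723, limma). Its other 2 probes gave -0.02 and 0.09. SLC3A2, the CD98 heavy chain that takes SLC7A5 and SLC7A11 to the membrane, was at -0.72, -0.94 and -0.98 alone and at -0.69, -0.88 and -0.84 in co-culture (difference 0.08, interval -0.16 to 0.31, adjusted p 0.642, limma). The ranges of both groups overlapped for all 3 genes.

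SLC7A11, the cystine and glutamate exchanger on which glutathione synthesis draws, was at -2.26, -2.37 and -2.47 alone and at -2.10, -1.89 and -2.12 in co-culture. The groups did not overlap, but the difference of 0.33 (interval 0.09 to 0.56) missed the threshold (adjusted p 0.0768, limma). CD44, whose variant form is known to hold SLC7A11 at the membrane, was lower in co-culture (difference -0.78, interval -1.05 to -0.51, adjusted p 0.0183, limma), at 0.76, 1.05 and 1.15 alone and 0.27, 0.17 and 0.18 in co-culture. Whether the CD44 probe measures that variant form was not analysed, and a link to SLC7A11 was not tested. SLC7A1, the carrier of arginine and lysine, was at 3.17, 3.11 and 3.02 alone and at 3.20, 3.04 and 3.04 in co-culture (difference -0.01, interval -0.21 to 0.19, adjusted p 0.953, limma). Its second probe, which shares 53 of 60 bases with the first and so is no separate measurement, gave 0.03.

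Of the 8 tested SLC38 carriers, which take up neutral amino acids with sodium, 7 had a difference above 0, with a median of 0.28. None was called by limma or by the methods' t-test after adjustment. At an unadjusted p under 0.05 (limma) there were 2, and the share of all probes at that threshold was not counted. SLC38A2, the carrier that cells short of amino acids raise, was at 4.93, 4.31 and 4.41 alone and at 5.05, 4.91 and 4.76 in co-culture (difference 0.36, interval -0.06 to 0.78, adjusted p 0.215, limma). SLC38A1, its neighbour on chromosome 27 at 106 kb, was at 3.39, 2.95 and 3.04 alone and at 3.47, 3.30 and 3.29 in co-culture (difference 0.23, interval -0.08 to 0.54, adjusted p 0.282, limma). Its other 2 probes gave 0.24 and 0.03 (adjusted p 0.25 and 0.892, limma). At the brightest probe of both genes alone replicate 1 lay among the co-cultured arrays and the other 2 arrays of cells alone lay below them. Without alone replicate 1 both were called, with differences of 0.55 (adjusted p 0.0206) and 0.36 (adjusted p 0.0359, limma). SLC7A11 was also called without it (0.38, adjusted p 0.0416, limma). Calls rose over the whole array in that setting, to 7335 of 27757 probes tested, against 2978 of 26535 with all arrays kept. SLC38A9, the lysosomal arginine sensor of the mTORC1 pathway, was at -1.87, -1.95 and -1.93 alone and at -2.26, -1.91 and -1.91 in co-culture (difference -0.11, interval -0.38 to 0.16, adjusted p 0.549, limma), with co-cultured replicate 1 apart from the rest.

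**Figure D5:**
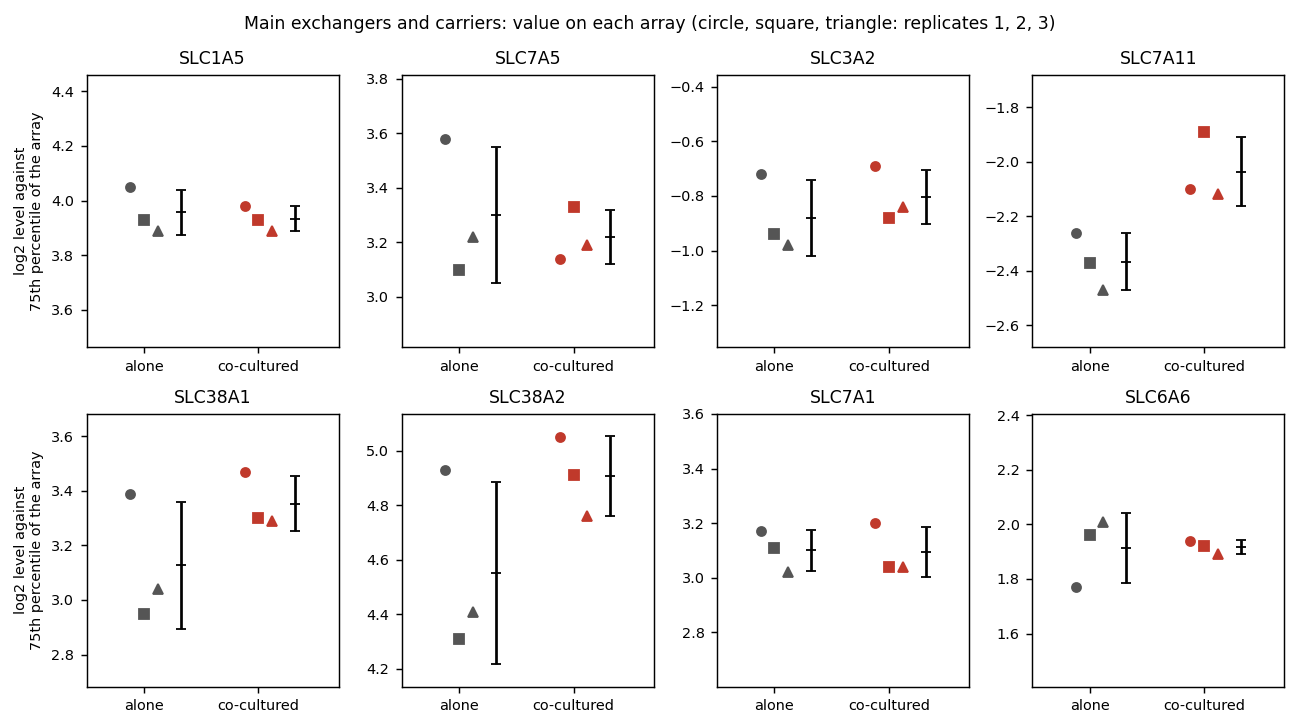
Level on each array (y axis, log2 against the 75th percentile of the array, with its own range in each panel) of 8 widely used exchangers and carriers, for RasV12 cells alone in grey and co-cultured cells in red, with the mean and SD of 3 arrays in black. The groups are apart only for SLC7A11. Alone replicate 1 (circle) is the highest array of cells alone in every panel but that of SLC6A6, and by most for SLC7A5, SLC38A1 and SLC38A2.

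The osmolyte carriers beside SLC6A12 showed no such difference. SLC6A6, the taurine carrier, was at 1.77, 1.96 and 2.01 alone and at 1.94, 1.92 and 1.89 in co-culture (difference 0.00, interval -0.20 to 0.21, adjusted p 0.978, limma), and its other 3 probes gave -0.21 to -0.05. SLC6A8, the creatine carrier, was at -0.91, -0.84 and -0.79 alone and at -0.78, -0.79 and -0.94 in co-culture (difference 0.01, interval -0.18 to 0.20, adjusted p 0.946, limma). Differences in the 6 osmolyte, GABA and creatine carriers ran from -0.24 to 1.39 with a median of 0.05, so SLC6A12 stood apart from the other 5, none of which was called. The difference between SLC6A12 and these genes was not tested.

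Of the other named carriers, SLC6A9, a glycine carrier, was close to background, at -4.96, -5.00 and -4.99 alone and at -4.87, -4.62 and -5.42 in co-culture. It was well above background on 2 of 3 co-cultured arrays, and its difference was 0.01 (interval -0.45 to 0.48, adjusted p 0.970, limma). SLC43A1, a facilitative carrier of branched-chain amino acids, was at -1.33, -1.44 and -1.64 alone and at -1.51, -1.52 and -1.68 in co-culture (difference -0.10, interval -0.34 to 0.15, adjusted p 0.562, limma). Both tested SLC43 genes were below 0 and both tested SLC36 genes above it, none of them called, with differences of -0.24 and -0.10, and of 0.08 and 0.10.

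Some further members, and SLC6A13, SLC3A1, SLC7A6, SLC7A7 and SLC6A14, were singled out after their values were seen. SLC1A4, a neutral amino acid exchanger, was at 4.41, 3.40 and 3.43 alone and at 4.83, 4.47 and 4.35 in co-culture. Alone replicate 1 lay between the co-cultured arrays, as for SLC38A2, and the difference of 0.80 (interval 0.11 to 1.49) was not called (adjusted p 0.116) but was called with the replicate number as a block (adjusted p 0.0429, limma). SLC7A10, an exchanger of small neutral amino acids, was at -5.45, -4.97 and -5.00 alone, with 2 of these 3 arrays well above background, and at -4.57, -4.74 and -4.74 in co-culture (difference 0.46, adjusted p 0.0844, limma). Among tested members, those whose groups did not overlap and that were lower in co-culture were SLC6A17 and SLC7A6OS, with differences of -0.27 (adjusted p 0.0837) and -0.30 (adjusted p 0.0902, limma).

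For 9 members more than 1 probe was tested, and the signs of the difference agreed in 4 of them. The widest disagreement was in SLC6A17, a neutral amino acid carrier of neurons, whose brighter probe gave -0.27 and whose other probe gave 0.64 (adjusted p 0.384, limma). That second probe was at -3.42, -5.21 and -3.60 in the co-cultured arrays, so replicate 2 lay apart from the other two. In SLC43A2, a relative of SLC43A1, the probes gave -0.24 and -0.57 (adjusted p 0.194 and 0.0857, limma). Both probes of SLC38A2 gave 0.36.

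Of the 18 members that were not tested, 7 were well above background on at least 1 array. In 3 of these, 2 of the 3 arrays of RasV12 cells alone measured the gene and no co-cultured array did. They were SLC3A1, the heavy chain of the renal cystine carrier, SLC7A7, a light chain that exports arginine and lysine, and SLC7A6, a related light chain. Against the lowest level called well above background on each array, or the gene's own level where that was higher, their means in cells alone (-5.12, -5.43 and -4.74) were 1.38-fold, 1.11-fold and 1.55-fold higher. Each mean takes in 1 array of cells alone that was not well above background, so these folds are not strict lower bounds. The arrays that measured these genes were alone replicates 2 and 3, whose lowest levels called well above background were -5.92 and -6.14. On the co-cultured arrays that lowest level was -5.67 to -5.44, so detection reached less far down there. The second probe of SLC3A1 was well above background on no array. The groups did not overlap for SLC3A1 and SLC7A7, whereas for SLC7A6 alone replicate 1 (-5.63) lay below all 3 co-cultured arrays (-5.25, -5.48 and -5.37). SLC7A9, the light chain that pairs with SLC3A1, was well above background on no array. In the other direction SLC6A14, a broad carrier of neutral and cationic amino acids, was measured in 2 of 3 co-cultured arrays, at -7.44, -4.38 and -4.86, and in none of cells alone, at -6.01, -7.83 and -8.09. Its groups overlapped, and its mean in co-culture, likewise with 1 array not well above background, was 1.25-fold above that level.

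Other genes of amino acid handling were compared in the same way, from lists made by their pathway. Over these lists and the partner proteins 9 of 92 tested genes were called. Over the array 11.2% of all tested probes were called, and 10.9% of names at their brightest probe. The share called over the lists was thus near that of the array as a whole. Of 20 tested genes of the amino acid response and ATF4 targets, 2 were higher in co-culture and 1 lower, with a median difference of 0.11. ATF5, a transcription factor translated under stress, was at 3.02, 2.32 and 2.39 alone and at 4.05, 4.43 and 4.24 in co-culture, a difference of 1.67 ± 0.20 (SE, adjusted p 0.0136, limma). ATF3, a factor induced by stress, was higher by 0.74 (adjusted p 0.0245), and EIF2S1, the initiation factor subunit that the stress kinases phosphorylate, was lower (difference -0.31, adjusted p 0.0466, and 0.0596 with the block, limma). ATF4 itself, the factor through which amino acid shortage raises many carriers, was at 7.98, 7.74 and 7.79 alone and at 7.96, 7.94 and 7.90 in co-culture (difference 0.10, interval -0.10 to 0.30, adjusted p 0.454, limma). DDIT3, a target of ATF4, differed by -0.09 (interval -0.59 to 0.42, adjusted p 0.816, limma). Array levels of ATF4 RNA say nothing of its translation.

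Of 24 tested genes of amino acid sensing by mTORC1, 1 was higher and 1 lower, with a median of 0.11. MLST8, a subunit of the mTOR complexes, was higher by 0.74 (adjusted p 0.0483) and SEC13, a subunit of the GATOR complex and of nuclear pores, lower (difference -0.32, adjusted p 0.0322), and neither was called with the block (0.0590 and 0.0550, limma). MTOR differed by 0.11 (interval -0.09 to 0.32, adjusted p 0.415, limma). None of 18 tested aminoacyl-tRNA synthetases, which charge tRNAs with amino acids, was called by limma or by the methods' t-test after adjustment. Their median was -0.04, with differences of -0.30 to 0.23. At an unadjusted p under 0.05 (limma) there were 2 of them, and the share of all probes at that threshold was not counted.

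Of 19 tested enzymes of amino acid metabolism, 2 were higher in co-culture and none lower, with a median of 0.05. IDO1, which breaks down tryptophan, was at -4.38, -2.74 and -2.44 alone and at -1.16, 1.53 and 1.77 in co-culture, a difference of 3.90 ± 0.87 (SE, adjusted p 0.0392, limma). Replicate 1 was the lowest array of its group on both sides. GLUL, the glutamine synthetase, differed by -0.26 (interval -0.62 to 0.09, adjusted p 0.270, limma). Of 9 tested carriers of amino acids and peptides outside the families chosen here, 1 was called: SLC25A12, a mitochondrial carrier of aspartate and glutamate, was higher by 0.73 (adjusted p 0.0177, limma). With the block CTNS, the lysosomal cystine carrier, was called as well (difference 0.46, adjusted p 0.0382, limma). The 9 calls over these lists and the partner proteins fell to 0 without alone replicate 2 or 3, or without co-cultured replicate 2 or 3, and numbered 21 without alone replicate 1 and 7 without co-cultured replicate 1. Calls over the whole array moved likewise. They were 7335 of 27757 probes without alone replicate 1 and 2009 of 26942 without co-cultured replicate 1, and 7 to 24 where the list calls fell to 0.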

How the data were processed

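RNA of GFP-positive RasV12 cells was measured on 6 canine Agilent arrays of 1 colour, grouped by their titles. The authors deposited scanner output with an intensity per spot (Agilent Feature Extraction 10.10.1.1 per the file headers), with background subtracted within each array and no scaling across arrays. The authors also deposited log2 values, which equal the log2 processed signal minus about the 75th percentile of each array, with column medians of -0.833 to -0.780. Control spots and spots flagged as outliers were left out, spots of a probe averaged, and log2 processed signals set against the 75th percentile of the array. A probe was tested if every array of either group, or of both, measured it well above background, with limma 3.58.1 in R 4.3.3 (lmFit, eBayes, two-sided, Benjamini-Hochberg over 26535 probes, threshold 0.05). On simulated data of 26535 probes this recovered 74% of 2-fold and 94% of 4-fold changes with 6 false calls. The simulation changed 200 probes and drew the noise of each probe independently. It held no shift shared by an array or a slide, so these figures do not cover such shifts. The members and lists were chosen with earlier results of these data known. Members are named where called, and also SLC3A2, SLC7A5, SLC7A11, SLC1A5, SLC1A1, SLC7A1, SLC38A1, SLC38A2, SLC38A9, SLC36A1, SLC6A6, SLC6A8, SLC6A9, SLC6A19 and SLC43A1 whatever they did. Outside the families, ATF4, ASNS (no probe matched by name), DDIT3, GLUL, MTOR, IDO1 and called genes of the lists are named, with a few partners of carriers; some genes of these lists are not reported here. After removal of group means, arrays of the same replicate number correlated at 0.162 to 0.349 over 26529 probes, each over 0.1. That number is also the position on the slide. It was taken as a possible pairing and used in the replicate block. Unless the block or another setting is named, differences, intervals and adjusted p-values are from the fit without it. Unmatched numbers gave -0.329 to 0.238. Alone replicate 2 with co-cultured replicate 3 (0.238) exceeded the matched pair of replicates 2 (0.162), so the check separates replicates 2 and 3 poorly. Alternatives were quantile normalization, spike-in scaling, normexp with an offset of 50, no filter or a filter on all 6 arrays, the deposited log2 values, a 2-fold threshold, the unpaired two-tailed t-test of the study's methods, a replicate block, other probes of a gene and leaving out each array. Coordinates and sequences of probes are those of the scanner files (canFam3). Plots were drawn with Python 3.11.15 and matplotlib 3.10.9.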

Additional observations from a re-analysis of the deposited data

How the results depend on the processing

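The 4 members called, all higher, numbered 3 or 4 under quantile normalization, normexp, the filter on all 6 arrays, the deposited table, the replicate block and the mean over a gene's probes. With the replicate block SLC6A18 was lost and SLC1A4 gained, and it changed no other call among the members (median difference 0.10). Over the lists the block made 7 calls, against 9. With spike-in scaling 1 member was called (SLC6A12), with a members' median of -0.06, 4 list genes and 1021 probes of the array, and with no filter on dim probes 0 members, 0 list genes and 12 probes, where 43603 probes were tested. The methods' t-test called 2 members (SLC1A1 and SLC6A18, both higher), 1 list gene and 826 probes after Benjamini-Hochberg adjustment, and 9 members (7 higher, 2 lower), 24 list genes and 7315 probes unadjusted. The 2-fold threshold left 1 member, 2 list genes and 300 probes. Normexp called 15 list genes. Leaving out 1 array gave 0 to 13 members, 0 to 10 higher, 0 to 3 lower, 0 to 21 list genes, 7 to 7335 probes and a members' median of 0.07 to 0.19. The cause of these shifts was not tested.

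Members near 0 changed sign. Quantile normalization gave 0.01 for SLC1A5, 0.03 for SLC7A1 and -0.01 for SLC6A8. Spike-in scaling gave -0.09 for SLC3A2, -0.16 for SLC6A6, -0.15 for SLC6A8 and -0.15 for SLC6A9. The mean over probes gave 0.02 for SLC1A5, 0.01 for SLC7A1 and -0.11 for SLC6A6. Other probes gave 0.09 for SLC7A5, 0.07 for SLC1A5, 0.03 for SLC7A1, and -0.21, -0.05 and -0.18 for SLC6A6. Leaving out 1 array gave -0.18 to 0.06 for SLC7A5, -0.06 to 0.03 for SLC1A5 and for SLC7A1, -0.17 to 0.01 for SLC38A9, -0.07 to 0.05 for SLC6A6, -0.02 to 0.06 for SLC6A8 and -0.16 to 0.24 for SLC6A9. None of these values passed the threshold. No slide block was possible, because a slide never carried both groups.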

Other observations

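Some probes of these families carry an accession in place of a gene name and so fell outside the choice by name. The probe described as SLC38A10 was at -0.18, -0.24 and -0.15 in RasV12 cells alone and at 0.00, 0.12 and 0.16 in co-culture, without overlap, a difference of 0.29 ± 0.08 (SE, adjusted p 0.0582, limma). The 2 probes described as SLC6A15, a neutral amino acid carrier, gave 0.06 (adjusted p 0.779) and -0.37 (adjusted p 0.174, limma). Genes of the response to salt were looked at after the values of SLC6A12 were seen. SLC5A3, the inositol carrier of that response, was at -1.10, -0.56 and -0.59 alone and at -0.47, -0.74 and -0.59 in co-culture, a difference of 0.15 ± 0.16 (adjusted p 0.567, limma), and both probes of NFAT5, the transcription factor of that response, gave 0.10 and 0.07 (adjusted p 0.688 and 0.786, limma). None of these was called.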
